A study of Mus musculus with 16 samples.

Results

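The Krueppel-like factors are zinc-finger transcription factors that bind CACCC boxes and related GC-rich sequences. The 10 examined in adipose tissue were Klf2, Klf3, Klf4, Klf5, Klf6, Klf7, Klf9, Klf11, Klf13 and Klf15. They were read from every probe set of the array whose platform annotation holds exactly 1 symbol and that symbol is one of the 10, which gave 34 of 45101 probe sets and 10 of 18194 genes. Untreated male LACA mice of 25 ± 3 g on standard chow, whose age is not stated, gave subcutaneous white adipose tissue (sWAT) and brown adipose tissue (BAT), which the labels place in the "intrascapular" region. RNA of each tissue was hybridized to Affymetrix mouse arrays as 4 replicates, numbered 1 to 4, with 2 arrays for each, 16 arrays in all. The study's methods describe 4 mice. The comparison asked how the family differs between a fat that stores energy and a fat that burns it.

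In cultured preadipocytes the family works as a relay of activators and brakes on fat cell formation. Klf4 and Klf5 act early, on the genes of the C/EBP factors and of Pparg, the master regulator of adipocytes. Klf9 and Klf15 act later and favour differentiation, while Klf2, Klf3 and Klf7 hold it back. Klf6 represses the preadipocyte inhibitor Dlk1, Klf11 works with Pparg on thermogenic genes, and Klf13 is best known from lymphocytes. Several members have prominent roles outside adipocytes, Klf2 in endothelium and resting T cells and Klf15 in muscle and liver.

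The deposited log2 values are centred on the probe set's median of the 16 arrays, so a value of 0 is that median and no value gives a level. A positive difference is higher in BAT, and ± is the standard error of BAT minus sWAT with n = 4 replicates per tissue unless marked SD. A gene's value is the mean over its single-symbol probe sets. A gene or probe set is called where limma's adjusted p was under 0.05, in a fit with a block for the replicate number and an adjustment over all genes or all probe sets. The labels number the replicates without naming an animal for each, so the p-values measure the spread between these samples, which may be technical in part. In bulk tissue, fewer cells of a type and less RNA per cell cannot be told apart.

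As a check of the tissue labels, 10 of 10 brown adipocyte genes were higher in BAT, with Ucp1, the uncoupling protein of brown fat mitochondria, at 7.58 ± 0.49 (limma adjusted p = 8.54e-05). The adipocyte hormone Adipoq differed by 0.21 ± 0.12 and was not called. For Gapdh and Actb, the 5′ control probe sets minus the 3′ ones gave -4.79 for the first sWAT 3 array and -3.56 for the second BAT 1 array (replicate numbers), against -1.23 to 0.46 on the other 14. These 2 are called the low-5′ arrays here, and calls and counts of the members are given both ways where they move without them. All mice are labelled male, yet Xist, the RNA of the inactive X chromosome in females, stood at 5.74 to 6.36 in BAT replicates 1 to 3, against -0.27 to -0.11 in sWAT and -0.26 in BAT replicate 4. The mean of 3 Y-linked genes was -2.33 to -1.98 in BAT replicates 1 to 3, 0.18 in BAT replicate 4 and 0.20 to 0.39 in sWAT. Within numbers 1 to 3 the sex-linked genes thus differ between the tissues, so samples of equal number there do not match as tissues of 1 male mouse, and in BAT replicates 1 to 3 the tissue and this difference cannot be told apart. The pair numbered 4 is the one whose samples both match the label, and its differences are given for the called members. A pair here joins 2 samples of equal number, and counts of pairs are descriptive. Where the tissues do not overlap, all 4 pairs go 1 way whichever samples are joined.

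The 3 members that the test called are Klf2, Klf9 and Klf15, and the 250 bases before their transcription starts are shown because proteins of this family bind CACCC boxes. Sequences and starts are from RefSeq on GRCm38.p6, all on the plus strand and 5′ to 3′, with CACCC or its reverse complement GGGTG in capitals. The Klf2 window is chr8:72318812-72319061, the Klf9 window chr19:23140976-23141225 and the Klf15 window chr6:90462326-90462575.
Klf2: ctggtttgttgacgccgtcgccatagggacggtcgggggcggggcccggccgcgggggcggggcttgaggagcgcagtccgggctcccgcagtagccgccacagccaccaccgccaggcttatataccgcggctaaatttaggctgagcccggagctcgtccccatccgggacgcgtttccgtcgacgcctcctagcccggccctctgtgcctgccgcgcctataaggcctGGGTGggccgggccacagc
Klf9: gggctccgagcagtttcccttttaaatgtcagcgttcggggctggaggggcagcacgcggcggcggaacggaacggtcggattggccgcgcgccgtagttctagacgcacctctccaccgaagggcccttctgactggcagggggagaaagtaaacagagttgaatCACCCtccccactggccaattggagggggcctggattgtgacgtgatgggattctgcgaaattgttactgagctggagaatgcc
Klf15: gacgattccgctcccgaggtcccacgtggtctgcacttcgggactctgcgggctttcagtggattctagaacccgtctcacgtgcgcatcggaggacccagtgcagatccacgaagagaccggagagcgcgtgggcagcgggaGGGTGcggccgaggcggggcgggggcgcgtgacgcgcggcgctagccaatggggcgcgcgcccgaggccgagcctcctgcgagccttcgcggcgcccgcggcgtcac
Each of the 3 windows holds 1 match on either strand, in Klf2 near the start, in Klf9 and Klf15 further away from it. The table of promoters holds 9 of the 10 members, all but Klf5. CACCC or GGGTG was found in 6 of these 9 windows, against 52.0% of 32817 windows of all genes. The GC box GGGCGG, or CCGCCC on the other strand, was found in 8 of 9, against 32.7% of all windows. Klf9 was the member without it, while Klf2 had 2 matches and Klf15 had 1. The E-box CACGTG, the site read by clock factors, was found in 4 of 9 windows against 6.02%, and Klf15 alone among these windows had 2. GC content was 71.2% for Klf2, 59.6% for Klf9 and 72.0% for Klf15, against a median of 52.4%, and the CACCC and GC boxes are themselves GC-rich. TATAAA, or TTTATA on the other strand, was found in 0 of 9 windows, against 12.4% of all windows. A match is a string of letters and not a measured binding site.

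Of the 10 members, 2 were higher in BAT (Klf9 and Klf15), 1 was lower (Klf2) and 7 were not called. Among all 18194 genes the same test called 21% higher and 17.5% lower, 38.4% in all, so the share of members called is close to that of any gene. The median difference was -0.24 over the members and 0.15 over all genes. The BAT and sWAT values of 3 members did not overlap with all arrays, and these were the called ones. Over all genes the 4 BAT values lay above the 4 sWAT values in 28% and below them in 17.4%. Without the low-5′ arrays 4 members did not overlap, the fourth being Klf3, lower in BAT but not called, where 32.2% of all genes lay above and 20% below.

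Klf9, a factor induced by glucocorticoid and thyroid hormones that favours adipocyte differentiation, was 2.27-fold higher in BAT. Its sWAT values were -0.51, -0.16, -0.56 and -0.75 in replicates 1 to 4. Its BAT values were 0.77, 0.82, 0.84 and 0.31. Every BAT replicate lay above every sWAT replicate, and BAT replicate 4 was the lowest of its tissue. The difference was 1.18 ± 0.13 (95% confidence interval 0.88 to 1.48, limma adjusted p = 0.00053). Pairs 1 to 4 differed by 1.28, 0.98, 1.40 and 1.06, all above 0 as the lack of overlap requires.

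Klf15, which raises the glucose transporter Slc2a4 and drives the breakdown of amino acids, was 1.78-fold higher in BAT. Its single probe set gave sWAT values of -0.55, -0.20, -0.13 and -1.14. In BAT it gave 0.18, 0.00036, 1.08 and 0.06. The groups did not overlap, but the gap between the highest sWAT and the lowest BAT replicate was narrow and BAT replicate 3 stood well above the others. The difference was 0.83 ± 0.19 (95% confidence interval 0.38 to 1.29, limma adjusted p = 0.0136). The 4 pairs gave 0.73, 0.20, 1.21 and 1.20, all above 0 because the groups did not overlap.

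Klf2, a brake on Pparg in preadipocytes and a factor of quiescent endothelium and T cells, showed the largest difference of the 10 members, 3.81-fold lower in BAT. Its sWAT values were 1.23, 0.61, 0.69 and 1.04. In BAT its values were -1.73, -0.91, -0.96 and -0.56. All sWAT replicates lay above 0 and all BAT replicates below it, with BAT replicate 1 the lowest. The difference was -1.93 ± 0.25 (95% confidence interval -2.52 to -1.34, limma adjusted p = 0.00118). Pairs 1 to 4 gave -2.95, -1.53, -1.64 and -1.60. Klf2 too has 1 probe set, so its value could not be compared with that of another probe set of the gene.

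The calls of Klf2 and Klf15 depended on the test. In the methods' t-test over 4 replicate pairs, which estimates the spread of each gene from its own 4 differences, Klf2 had an adjusted p of 0.0529 and Klf15 of 0.109, while Klf9 passed at 0.0229. Both were called in each of the other 14 alternatives run. Without the low-5′ arrays Klf2 stood at -1.95, Klf9 at 1.19 and Klf15 at 0.90.

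**Figure D1:**
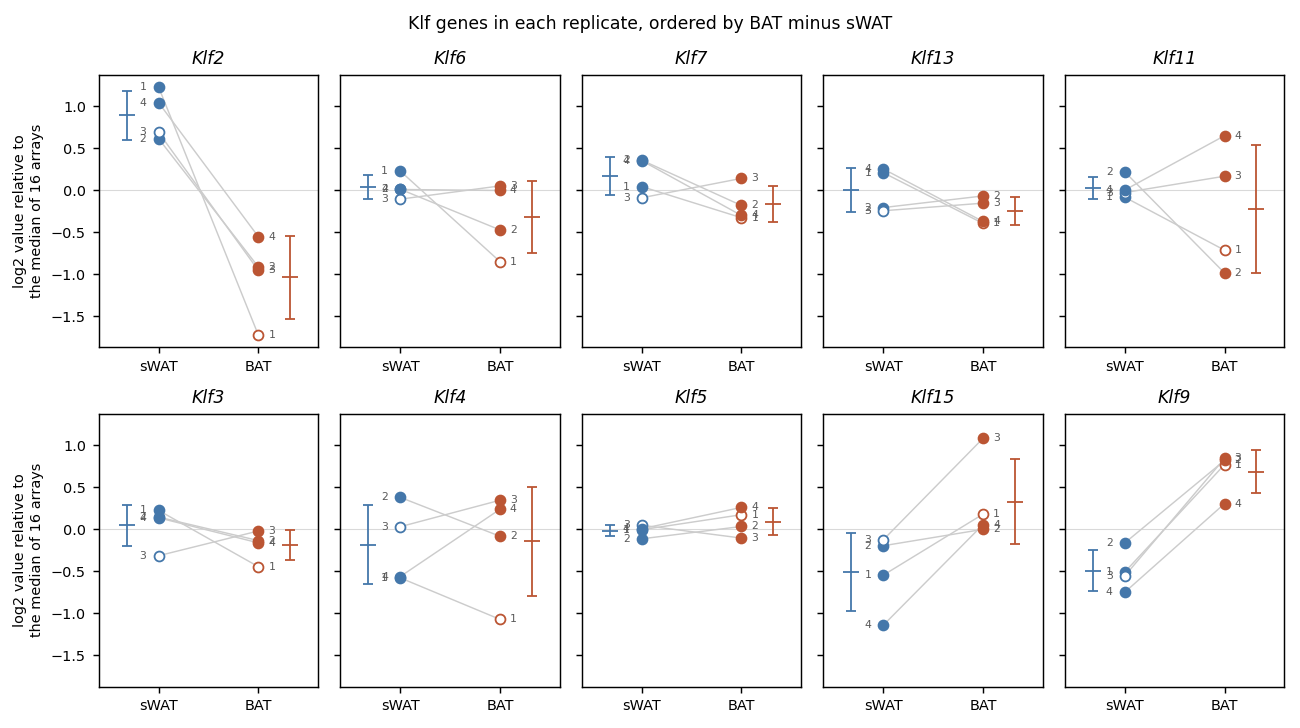
Values of the 10 Klf genes in each replicate of sWAT (blue) and BAT (orange), as log2 relative to the median of the 16 arrays, with grey lines joining equal replicate numbers, bars for the mean ± SD of 4 replicates and open points for the replicates that include a low-5′ array. Klf2 lies between 0.61 and 1.23 in sWAT and between -1.73 and -0.56 in BAT, Klf9 and Klf15 lie higher in BAT without overlap, and the tissues overlap in the other 7.

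The 7 members that were not called had differences from -0.35 to 0.11. Klf5, which acts on the Pparg promoter early in differentiation, differed by 0.11 ± 0.12 (95% confidence interval -0.19 to 0.40), and at -0.01 without the low-5′ arrays its sign turned. Klf4, an early activator of Cebpb, differed by 0.04 ± 0.23 (-0.51 to 0.59), and its sign turned with arrays shifted to a common median. The BAT values of Klf4 ran from -1.07 in replicate 1 to 0.35 in replicate 3, a spread wider than the difference between the tissues.

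Among the members that repress adipogenesis or its inhibitors, Klf3, a partner of the corepressor CtBP, differed by -0.24 ± 0.17 (-0.64 to 0.16). Klf7, a brake on adipocyte differentiation, differed by -0.33 ± 0.17 (-0.73 to 0.07). Klf6, the repressor of Dlk1, differed by -0.35 ± 0.21 (-0.86 to 0.15), with BAT values from -0.85 in replicate 1 to 0.05 in replicate 3. Klf7 was called lower only without replicate 3, where the difference was -0.52 (limma adjusted p = 0.0281). The intervals of these 3 include 0 and reach down to -0.64 or below with all arrays. Without the low-5′ arrays that of Klf3 was -0.53 to -0.04 and that of Klf7 -0.68 to -0.04, below 0 before adjustment over all genes, while that of Klf6 was -0.81 to 0.08.

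Klf11, a partner of Pparg in thermogenic adipocytes, differed by -0.25 ± 0.29 (-0.94 to 0.44). Its sWAT values stayed between -0.08 and 0.22, with an SD of 0.13, while BAT replicates 1 to 4 gave -0.72, -0.99, 0.17 and 0.65, with an SD of 0.76. The sWAT range lay inside that of BAT. Klf13 differed by -0.25 ± 0.18 (-0.67 to 0.17), with BAT values of -0.40 to -0.07 that overlap the sWAT range of -0.25 to 0.25.

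Ordered by BAT minus sWAT, the members ran Klf9, Klf15, Klf5, Klf4, Klf3, Klf11, Klf13, Klf7, Klf6 and Klf2. Klf9 exceeded Klf15 by 0.35 ± 0.41 (SD over the 4 pairs) and in 3 of 4 pairs, which is within the spread. Klf15 exceeded Klf5 by 0.73 ± 0.56 (SD) and Klf6 exceeded Klf2 by 1.58 ± 0.38 (SD), each in 4 of 4 pairs. Each neighbour pair between Klf5 and Klf6 held its order in 2 or 3 of 4 pairs, with gaps smaller than their SD. Samples numbered 1 to 3 do not match as tissues of 1 male mouse, so these SDs and counts depend on the numbering.

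The array carries up to 7 probe sets for a member, and they did not always give the same difference. For Klf9, 5 of 7 probe sets were called higher, from 1.26 (1428288_at) and 1.30 (1428289_at) through 1.41 (1456341_a_at) to 1.81 (1436763_a_at) and 1.85 (1422264_s_at). The other 2, 1436952_at at 0.34 and 1452723_at at 0.28, did not pass, so the mean of Klf9 lies below what most of its probe sets showed. Klf3 had probe sets on both sides of 0, from -0.81 for 1429360_at to 0.37 for 1458487_at. Only 1454666_at of Klf3 was called, at -0.57 ± 0.15 (limma adjusted p = 0.0237). For Klf13, 1436316_at stood at -0.57 and 1432543_a_at at -0.51, while 1456030_at stood at 0.33. The 5 probe sets of Klf6 (-0.53 to -0.23) and the 4 of Klf7 (-0.43 to -0.23) all lay below 0, and none of them was called.

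Of the 34 probe sets, 6 were called higher and 2 lower, against 15.1% and 17.3% of all probe sets, 32.4% in all. The low-5′ arrays touched this count. On both of them, 4 probe sets lay more than 1 log2 unit under the other array of the same replicate: 1421604_a_at of Klf3, 1427742_a_at of Klf6, 1422264_s_at of Klf9 and 1432543_a_at of Klf13. The gap was -3.62 and -3.34 for 1427742_a_at and -3.86 and -2.41 for 1422264_s_at. Without these arrays 6 member probe sets were called higher and 8 lower, where 21.7% and 20.7% of all probe sets were. Klf3 then had 4 probe sets called lower, Klf13 had 2, and Klf7 and Klf2 had 1 each.

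As a gene, Klf3 without the low-5′ arrays differed by -0.29 ± 0.10 (limma adjusted p = 0.0570). Its sWAT values of 0.09 to 0.23 and BAT values of -0.23 to -0.02 did not overlap, so 4 of 4 pairs were lower. Klf7 then differed by -0.36 with an adjusted p of 0.0636. Neither was called, where 28.7% of all genes were higher and 20.5% lower by this test and 57.8% of all genes went 1 way in 4 of 4 pairs with all arrays. The largest gaps between the 2 arrays of a replicate came from the same arrays, 0.81 for Klf3 in sWAT replicate 3 and 0.84 for Klf5 in BAT replicate 1, while the median gap of a member was 0.04 to 0.12.

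**Figure D2:**
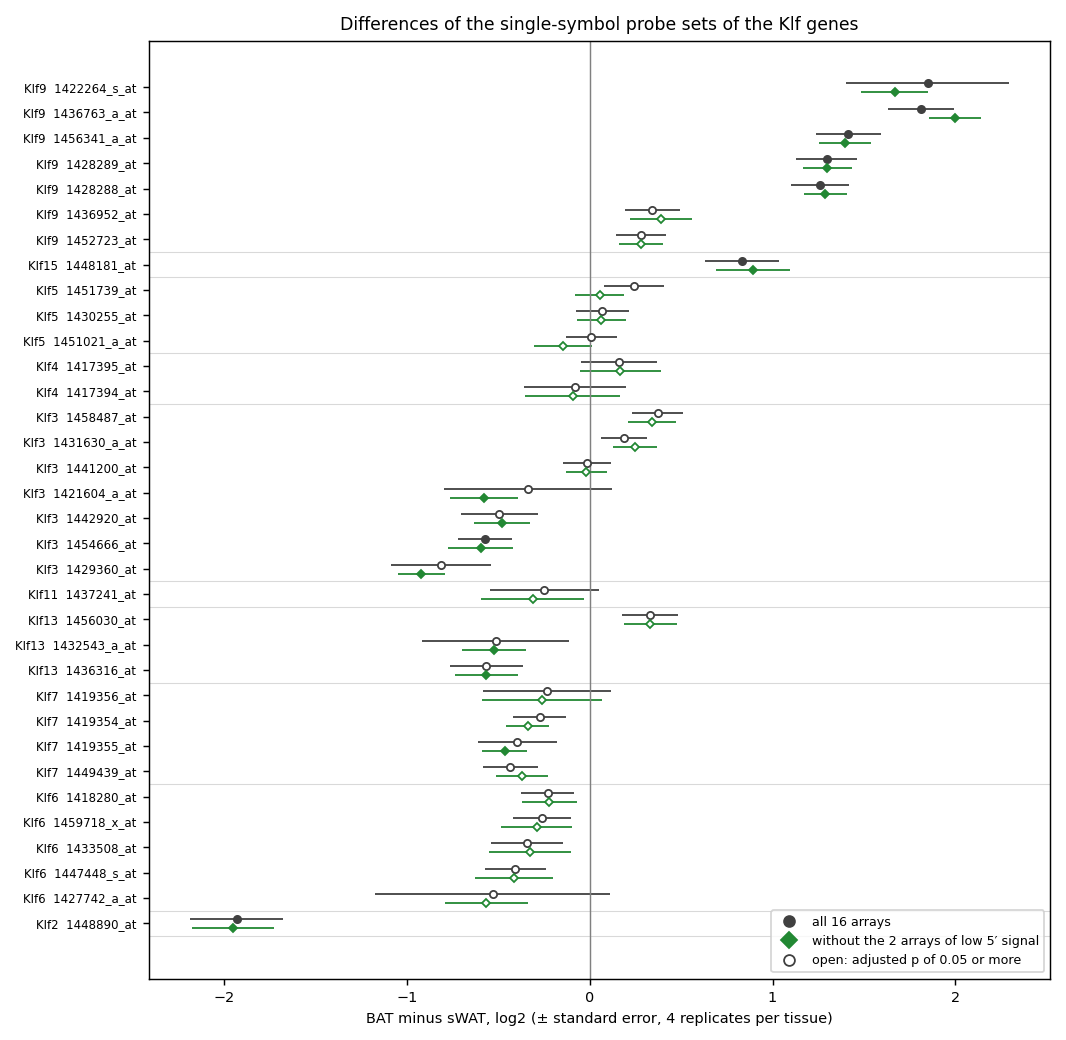
BAT minus sWAT (log2 ± standard error, 4 replicates per tissue) of the 34 single-symbol probe sets of the Klf genes, over all 16 arrays (circles) and without the 2 low-5′ arrays (diamonds), filled where the adjusted p was under 0.05. The Klf9 probe sets split into 5 between 1.26 and 1.85 and 2 at 0.28 and 0.34, and the called probe sets below 0 number 2 with all arrays and 8 without the low-5′ arrays.

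The genes whose 8 replicate values lay nearest to those of Klf2 were Sp100 (root mean square distance 0.11), Nuak2 (0.16) and Plcl2 (0.16), where the median gene lay at 1.12. Sp100 is a nuclear body protein and no Sp factor. Nearest to Klf9 were Nudt7 (0.096), Bpnt1 (0.098) and Abcd3 (0.11), with the median gene at 0.60. Nudt7 and Abcd3 encode peroxisomal proteins. The distance runs over both tissues, so a like difference between them is part of it.

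Of the 7 remaining Klf genes listed, 6 were measured and 1 was called, Klf1, the erythroid factor, at 0.78 ± 0.22 (limma adjusted p = 0.0274). Its sWAT values were -0.74 to -0.04 and its BAT values 0.01 to 0.67, and the call was lost without replicate 1 (0.65), 2 (0.61) or 4 (0.83). Klf10, an early gene of TGF-beta signalling, stood at 0.79 ± 0.28 and Klf17 at 0.45 ± 0.16, and neither was called. Without the low-5′ arrays both passed, at 0.84 (limma adjusted p = 0.0203) and 0.46 (0.0217), as did Klf10 without replicate 3, at 1.15, and Klf17 without the replicate block (adjusted p = 0.0223). Klf12, Klf14 and Klf16 differed by -0.10, -0.06 and -0.12.

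The Sp factors are the sister family with the same kind of zinc fingers, and they compete with Klf proteins for GC boxes. Of 9 listed, 7 were measured, 0 were called higher and 3 were called lower. These were Sp4 (-1.60 ± 0.16), Sp3 (-1.04 ± 0.24) and Sp1 (-0.87 ± 0.13), each without overlap between the tissues. Sp3 was not called without replicate 1 (-0.83) or 2 (-0.91). Sp5, Sp6, Sp7 and Sp8 stood at 0.40, 0.09, 0.21 and 0.04 and were not called, though Sp5 was without the replicate block (limma adjusted p = 0.0382).

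The proteins through which Klf factors act or are removed were a mixed group, with 2 of 13 measured genes higher and 4 lower in BAT. Wwp1, a ubiquitin ligase of Klf2 and Klf5, was higher by 0.74 ± 0.14. Ctbp2, a corepressor bound by Klf3, was higher by 0.58 ± 0.14, a call lost without replicate 1 (0.56) or 4 (0.47). Hdac1 (-1.31 ± 0.14), the ubiquitin ligase subunit Fbxw7 (-1.12 ± 0.13) and Sap30 of the Sin3 complex (-1.03 ± 0.18) were lower, as was Crebbp. The median of the list was -0.23. Without the low-5′ arrays 3 of the 13 were higher and 5 lower.

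**Figure D3:**
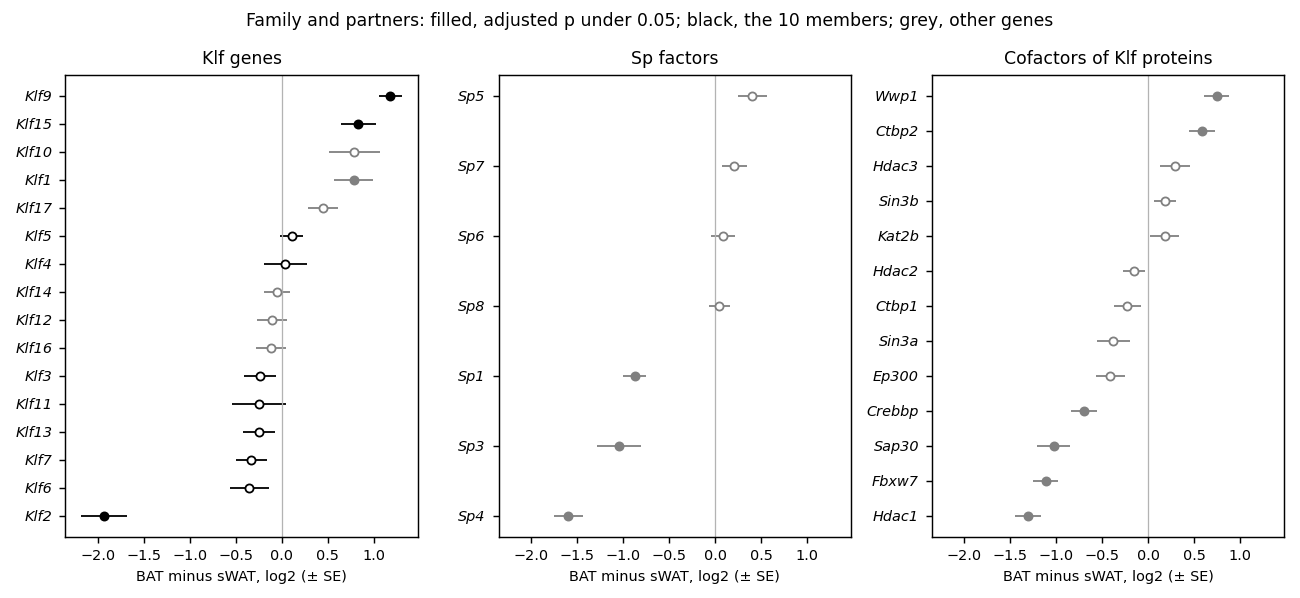
BAT minus sWAT (log2 ± standard error, 4 replicates per tissue) of the Klf genes, the Sp factors and the cofactors of Klf proteins, filled where the adjusted p was under 0.05, with the 10 members in black and other genes in grey. Klf9 and Klf2 stand at the ends of the Klf panel, and the 3 called Sp factors lie between -1.60 and -0.87.

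Of 17 adipogenic transcription factors, with which the members share target genes, 8 were higher and 3 lower in BAT, with a median of 0.45, and without the low-5′ arrays 9 were higher and 3 lower. Ebf2 of brown preadipocytes (1.84 ± 0.37), Cebpb, a target of Klf4 (1.67 ± 0.28), and Pparg, the target of Klf2 and Klf5 (1.47 ± 0.14), were higher. Egr2, an early factor that induces Cebpb (-2.58 ± 0.27), Gata3 of preadipocytes (-2.10 ± 0.23) and Creb1 (-0.53 ± 0.12) were lower. The Creb1 call was lost without replicate 2 (-0.56) or 4 (-0.50). Cebpd stood at -0.50 ± 0.20 and was called only without replicate 4, at -0.73.

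Of 8 genes known as targets of Klf15, 5 were higher and 0 lower, with a median of 0.98. Of all genes, 21% were higher and 17.5% lower. The 3 targets not called stood between -0.37 and 0.30. Muscle fibre and brown adipocyte genes were higher in the same samples, so the count and median of this list are no measure of Klf15 activity. Slc2a4, the insulin-responsive glucose transporter, was higher by 1.94 ± 0.25, and Prodh, of proline breakdown, by 1.28 ± 0.19. Bcat2, of branched-chain amino acid breakdown, was higher by 1.79 ± 0.57 with overlap, since sWAT replicate 2 stood at 1.55. Its call was lost without replicate 1 (1.78) and without the replicate block (limma adjusted p = 0.0814).

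Of 6 measured genes known as targets of Klf2, 0 were higher and 2 lower, with a median of -0.22. The list was not sorted by whether Klf2 raises or lowers each gene. Its count and median are therefore no measure of Klf2 activity. These were Itgb7, a lymphocyte integrin (-2.32 ± 0.16), and Vcam1, an endothelial adhesion molecule (-1.13 ± 0.17). Nos3, the endothelial nitric oxide synthase that Klf2 activates, stood at 0.63 ± 0.28 and S1pr1, the lymphocyte exit receptor, at -0.05 ± 0.23, and neither was called.

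Several members are early response or hormone-induced genes, so both kinds were counted. Of 9 glucocorticoid-induced genes, 4 were higher and 1 lower, with a median of 0.07. Pdk4 (2.60 ± 0.29), Mt2 (2.17 ± 0.23) and Mt1 (1.45 ± 0.16) were higher. Ddit4 was lower by -1.43 ± 0.37, a call lost without replicate 1 (-1.05) or 2 (-1.29), while Tsc22d3 and Fkbp5 stood at -0.02 and -0.07. Of 15 immediate early genes, 1 was higher and 7 were lower, with a median of -0.53. Myc (-2.11 ± 0.22), Egr3 (-1.91 ± 0.14) and Junb (-1.23 ± 0.28) were lower, and the Junb call was lost without replicate 1 (-0.96). Dusp1 was higher by 0.92 ± 0.24, a call lost without replicate 1 (0.91), 2 (0.66) or 3 (0.89) and without the replicate block.

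Markers of other cells moved with the tissue, and their part in the differences of the Klf genes was not tested. Centred values put no marker at a level of 0, so only differences can be given. All 5 measured B cell genes were lower in BAT, with replicate means of 1.78 to 2.69 in sWAT and -2.13 to -1.35 in BAT, and all 5 measured T cell genes were lower, with means of 1.31 to 1.76 and -1.89 to -1.14. Of 10 blood endothelium genes, 1 was higher (Tek, 0.80 ± 0.19, a call lost without replicate 1, at 0.70, or 4, at 0.69) and 0 were lower, with means of -0.74 to 0.26 in sWAT and -0.43 to 0.39 in BAT. Without the low-5′ arrays 6 endothelial genes were higher and 1 was lower. The median difference was -4.32 for the B cell, -4.10 for the T cell and 0.35 for the endothelial genes. Of 8 macrophage genes, 1 was higher and 5 were lower, or 6 without the low-5′ arrays.

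For Klf15, which muscle also uses, all 8 skeletal muscle fibre genes were higher in BAT, with a median of 5.58 and replicate means of -2.12 to -1.69 in sWAT and 2.38 to 4.23 in BAT. In BAT replicates 1 to 4 the muscle mean was 2.38, 3.45, 2.39 and 4.23. Klf15 there was 0.18, 0.00036, 1.08 and 0.06. The muscle genes moved with the tissue, and the part of muscle in the Klf15 difference was not tested. The brown adipocyte mean was 2.74 to 2.90 in BAT replicates 1 to 3 and 1.40 in replicate 4, the replicate in which Klf9 was lowest. BAT replicate 4 is also the BAT replicate whose sex-linked genes match the male label (Xist -0.26), so the 2 cannot be told apart there. Of 6 measured general adipocyte genes 2 were higher and 0 lower, with replicate means of -0.66 to 0.22 in sWAT and -0.60 to 0.40 in BAT, and without the low-5′ arrays 2 were higher and 1 lower. Of 8 fibroblast and progenitor genes 6 were lower, with a median of -1.15, and of 7 smooth muscle and pericyte genes 2 were higher, or 3 without the low-5′ arrays. Of 7 epithelial genes 3 were higher and 2 lower.

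**Figure D4:**
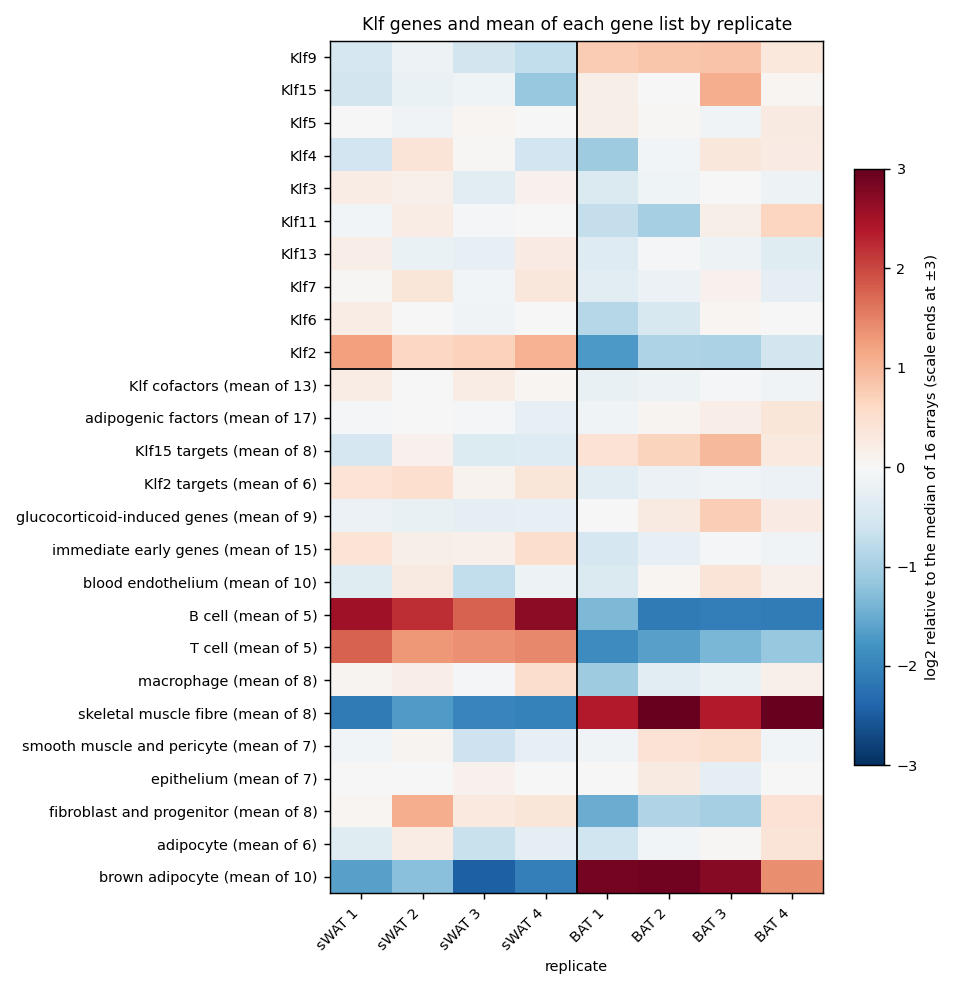
Values of the 10 Klf genes and the mean of each gene list in the 8 replicates, as log2 relative to the median of the 16 arrays, on a colour scale that ends at ±3. Klf2 and the rows of B cell, T cell, Klf2 target and immediate early genes are each positive in sWAT and negative in BAT. The blood endothelium row overlaps between the tissues, and the muscle row is highest in BAT replicates 2 and 4. A link between the Klf rows and the list rows was not tested.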

How the data were processed

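The RNA of sWAT and BAT of LACA mice was measured with 8 Affymetrix mouse arrays per tissue. The authors normalized the deposited log2 values by RMA with quantile normalization in GeneSpring, with the probe set's median across samples as baseline. Centring removes the signal level. Precision is limited by the 4 replicates per tissue. Each replicate is the mean of its 2 arrays, and the difference BAT minus sWAT was fitted with limma 3.58.1 in R 4.3.3 (lmFit and eBayes, replicate number as a block as in the methods' paired test), with Benjamini-Hochberg adjustment over 45101 probe sets or 18194 genes. Names came from the platform annotation of 2016, in which 34958 probe sets hold 1 symbol, 932 several and 9211 none. A single symbol was replaced by the RefSeq symbol of the same Entrez gene number where there was one. A gene is the mean of its single-symbol probe sets. The code was tested on simulated data.

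The members and lists were chosen with earlier results of these data known, and of 169 listed genes beside the members 158 were measured. Named are all members, Klf and Sp genes, of each other list up to 3 called genes a direction and up to 2 not called, and the 3 genes nearest to each member that was called with a difference of at least 1. Crebbp, S1pr1, Tsc22d3 and Fkbp5 were added after their values were seen. Deviations of equal numbers from their tissue means correlated at -0.15, 0.08, -0.34 and 0.26 over genes, and sex-linked genes differ between the tissues of numbers 1 to 3. The data therefore speak for no pairing there, and the block was kept from the methods (4 mice, paired test), with the fit without it as an alternative. Motifs were counted in Python 3.11.15 and figures drawn with matplotlib 3.10.9. The 15 alternatives covered the block, single arrays, left-out replicates and arrays, scaling, probe set filters, the methods' t-test and the median over probe sets.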

Additional observations from a re-analysis of the deposited data

Results flagged for a closer look

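In each group of 4 replicates, a value was singled out where its gap to the nearest other replicate as a share of the range of the 4 exceeded Dixon's 95% critical value. Of 202 groups tested 20 were singled out, and chance does so in about 1 in 20 groups. Among the members these were Klf3 in sWAT replicate 3 (-0.31, the others 0.14 to 0.23), which includes a low-5′ array, Klf9 in BAT replicate 4 (0.31, the others 0.77 to 0.84) and Klf15 in BAT replicate 3 (1.08, the others 0.00036 to 0.18).

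Among probe sets, sWAT replicate 3 stood apart for 1421604_a_at of Klf3 (-1.63), 1429360_at of Klf3 (-0.20), 1427742_a_at of Klf6 (-1.91) and 1430255_at of Klf5 (0.28). BAT replicate 3 stood apart for 1458487_at of Klf3 (0.14) and BAT replicate 1 for 1456030_at of Klf13 (0.26).

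Among the other genes and lists, BAT replicate 4 stood apart for Egr2 (-0.70), Ucp1 (2.75), Nudt7 (0.41), Xist (-0.26), the Y-linked mean (0.18) and the brown adipocyte mean (1.40). The sWAT replicate 3 stood apart for Mt1 (-0.28), the Y-linked mean (0.39) and the epithelial mean (0.13), sWAT replicate 2 for Bcat2 (1.55), and BAT replicate 1 for the B cell mean (-1.35). The cause was not tested for any of them.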

How the results depend on the processing

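Klf9 was called higher in all 15 alternatives run, between 1.02 and 1.34. Klf2 and Klf15 were called in 14, and in the methods' t-test over 4 replicate pairs Klf2 (-1.93) had an adjusted p of 0.0529 and Klf15 (0.83) of 0.109, which left 1 member higher and 0 lower. Without a replicate Klf2 ranged from -2.06 to -1.59 and Klf15 from 0.71 to 1.05, with adjusted p of 0.00747 to 0.0478. Without replicate 3 Klf7 was called too, its range over left-out replicates being -0.52 to -0.23, and the members called lower ranged from 1 to 2.

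Without the replicate block no member call changed, with adjusted p of 0.000234 for Klf2 (-1.93), 0.000382 for Klf9 (1.18) and 0.0396 for Klf15 (0.83), while 18432 probe sets and 8573 genes were called, against 14605 and 6989 with it. With arrays shifted to the 3′ probe sets of Gapdh and Actb these were 8927 and 3771, and in the methods' t-test over 4 pairs 5116 and 3567. Over left-out replicates the genes called ranged from 4627 (without replicate 2) to 6766 and the probe sets from 9764 to 14069.

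Differences near 0 changed sign. Klf4 went to -0.021 with arrays shifted to a common median and ranged from -0.21 to 0.22 without a replicate, and Klf5 went to -0.0089 without the low-5′ arrays. Klf11 ranged from -0.55 to 0.070, Klf12 from -0.27 to 0.013, Klf14 from -0.17 to 0.029, Klf16 from -0.25 to 0.053, Sp6 from -0.00057 to 0.18 and Sp8 from -0.0021 to 0.085 without a replicate. With the second arrays alone Klf12 was 0.040 and Klf14 0.036, with the first arrays alone Klf16 was 0.016, without the flattest 25% of probe sets Sp6 was -0.14, and with the common median Sp8 was -0.016. The cause was not tested. Alternatives for the lists and for genes other than the members were chosen after the data were seen. Over them, 49 calls of other named genes were lost and 16 gained.

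With 4 replicates per tissue and all arrays, the 95% confidence intervals of the 7 members not called all included 0. The narrowest was that of Klf5 (-0.19 to 0.40) and the widest that of Klf11 (-0.94 to 0.44). Probe sets of 1 gene share their samples and are no replicates, and 3 members rest on 1 probe set.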
